A study of Homo sapiens with 12 samples.

Results

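Homologous recombination copies an intact DNA strand to mend a double-strand break, and the Fanconi pathway unhooks crosslinks between strands and hands the resulting break to recombination. Checkpoint kinases sense the exposed DNA and hold the cell cycle while repair proceeds. The genes described here encode the parts of this system, and were taken from a fixed list of 43 recombination, crosslink repair and checkpoint symbols. Of these, 38 had a probe set annotated to that gene alone, out of 19775 genes with such a probe set, and all 38 lay above the array median in all 12 arrays. BRCA2, FANCA, FANCD2, ATRIP and RBBP8 were not analysed here. The values are levels of mRNA, and neither repair activity nor protein was measured.

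The cells were ML-2, a human acute myeloid leukaemia line grown in culture, and the 12 Affymetrix arrays fell into 4 groups of 3. Combination cells had 2 µM SGI-110 for 24 h and then 5 µM ASTX660 for another 9 h. SGI-110 cells had 2 µM SGI-110, labelled as 33 h, with solvent in place of ASTX660. ASTX660 cells had solvent first and then 5 µM ASTX660 for 9 h, and solvent cells had solvent at both steps. SGI-110 (guadecitabine) is a prodrug of decitabine, a nucleoside that is built into new DNA and traps DNA methyltransferases there. The trapped enzymes are bulky lesions that replicating cells have to repair, which is the setting in which recombination and Fanconi genes matter for such drugs. ASTX660 antagonises inhibitor of apoptosis proteins. The labels do not say whether SGI-110 was removed before ASTX660 was added.

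All levels are log2 intensities as deposited, and differences are log2 differences with the limma standard error (SE). A gene was called when its p-value, adjusted over all 12689 tested genes within a comparison, was under 0.05. Array numbers 2, 9 and 13 are those in the titles, and values of a group are given in that order. Among the markers of the line, MPO, ELANE and LYZ averaged between 13.17 and 13.65 in the 4 groups, and 8 of 9 myeloid markers with a probe set lay above the array median in all 12 arrays. Other myeloid markers differed more: CSF1R averaged 6.49 in combination cells, 6.25 in SGI-110 cells, 5.52 in ASTX660 cells and 5.73 in solvent cells, and ANPEP, above the median in 2 arrays, averaged 4.62, 4.61, 4.07 and 4.03 in the same groups. Of 16 markers of other lineages, 6 (EPOR, HBB, CD79A, CD3E, KRT18 and COL1A1) lay above the array median in all arrays. Another 6 (KLF1, MS4A1, CD2, EPCAM, CDH1 and LUM) did so in 0 arrays. In solvent cells EPOR averaged 8.16 and COL1A1 averaged 7.73. The epithelial keratin gene KRT18 averaged 6.98 in combination cells, 7.02 in SGI-110 cells, 6.22 in ASTX660 cells and 6.20 in solvent cells. The part of CSF1R, ANPEP and KRT18 in the results was not tested. ASTX660 array 2 stood apart from the others: it gave the highest of the 12 values for 25.11% of all tested genes. The calls that it moves are therefore also given without it. Medians and the counts of non-overlapping arrays and of intervals are mostly given with it only.

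Few of the repair genes passed the test in any comparison. SGI-110 called 1 of the 38 genes higher and 2 lower than solvent, the combination called 2 higher and 0 lower than solvent, and the combination called 0 higher and 4 lower than ASTX660. The background of all tested genes called was 9.5% higher and 5.9% lower for SGI-110 against solvent, 12.1% higher and 5.85% lower for the combination against solvent, and 8.37% higher and 7.69% lower for the combination against ASTX660. The members' shares were 2.63% and 5.26%, 5.26% and 0%, and 0% and 10.5% in the same order. Only 6 genes were called in any comparison: CLSPN, FANCM, RAD54B, RAD50, NBN and BARD1. The largest called difference was 0.31 in size, which is a ratio of 1.24. In RNA from whole cultures, fewer cells of a type and less RNA per cell cannot be told apart.

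The promoters of 4 of these called genes are shown because they are the regulatory sequence beside the transcripts that moved. They come from RefSeq (GRCh38.p14), which listed 45 start sites for 35 of the 38 genes, and each is the 250 bases before the start, 5′ to 3′ on the gene's strand. CLSPN and RAD50 were to be printed by rule, while BARD1 and FANCM were chosen after their values were seen. RAD54B had the smallest adjusted p of the members with SGI-110 against solvent (0.0141), but its promoter and that of NBN are not shown here. Capitals mark letters of the CCAAT box (CCAAT) or of an E2F site (TTTCCCGC, TTTGGCGC, TTTCGCGC or TTTGCCGC) on either strand. CLSPN lies at chr1:35769979-35770228 on the minus strand, RAD50 at chr5:132556727-132556976 on the plus strand, BARD1 at chr2:214809684-214809933 on the minus strand and FANCM at chr14:45135680-45135929 on the plus strand.
CLSPN: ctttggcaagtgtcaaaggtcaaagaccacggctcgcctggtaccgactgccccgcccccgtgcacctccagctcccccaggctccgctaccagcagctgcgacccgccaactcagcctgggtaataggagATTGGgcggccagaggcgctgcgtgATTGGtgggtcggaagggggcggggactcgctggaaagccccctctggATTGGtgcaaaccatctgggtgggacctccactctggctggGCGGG
RAD50: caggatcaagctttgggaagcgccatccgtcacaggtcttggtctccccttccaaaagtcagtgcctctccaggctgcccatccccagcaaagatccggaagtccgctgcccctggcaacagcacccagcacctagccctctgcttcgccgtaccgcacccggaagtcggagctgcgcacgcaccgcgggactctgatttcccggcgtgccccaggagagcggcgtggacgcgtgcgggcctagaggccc
BARD1: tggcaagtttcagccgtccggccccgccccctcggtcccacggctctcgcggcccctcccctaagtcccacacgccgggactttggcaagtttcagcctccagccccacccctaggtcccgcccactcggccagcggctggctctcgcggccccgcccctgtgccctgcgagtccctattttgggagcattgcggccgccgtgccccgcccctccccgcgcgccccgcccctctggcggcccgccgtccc
FANCM: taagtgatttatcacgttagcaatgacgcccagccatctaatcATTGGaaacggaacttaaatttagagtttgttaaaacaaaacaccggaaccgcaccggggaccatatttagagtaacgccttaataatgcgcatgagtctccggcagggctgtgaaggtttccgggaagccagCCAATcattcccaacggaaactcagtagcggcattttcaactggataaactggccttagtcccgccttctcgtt

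In CLSPN, CCAAT boxes began 119, 94 and 46 bases before the start, and the E2F letters GCGGGAAA began 5 bases before it and ran past it. FANCM held CCAAT boxes that began 207 and 74 bases before its start. RAD50 and BARD1 held none of these letters in the stretch shown, which says only that these exact letters are not in this window. Over the whole 300 bases of each listed promoter, E2F letters stood in 6 of 45 members' promoters (13.3%), against 3.3% of all 35116 promoters. Those promoters belong to CLSPN, EXO1, TOPBP1, XRCC2, RMI1 and FANCC. CCAAT boxes stood in 24 of 45 (53.3%), against 34.6% of all promoters. The CHR letters TTTGAA of cell cycle genes stood in 6 of 45 (13.3%), against 15.2% of all. Motifs were searched on both strands and each was counted apart, whether or not letters overlapped, and a match is a description and not a bound site.

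**Figure D1:**
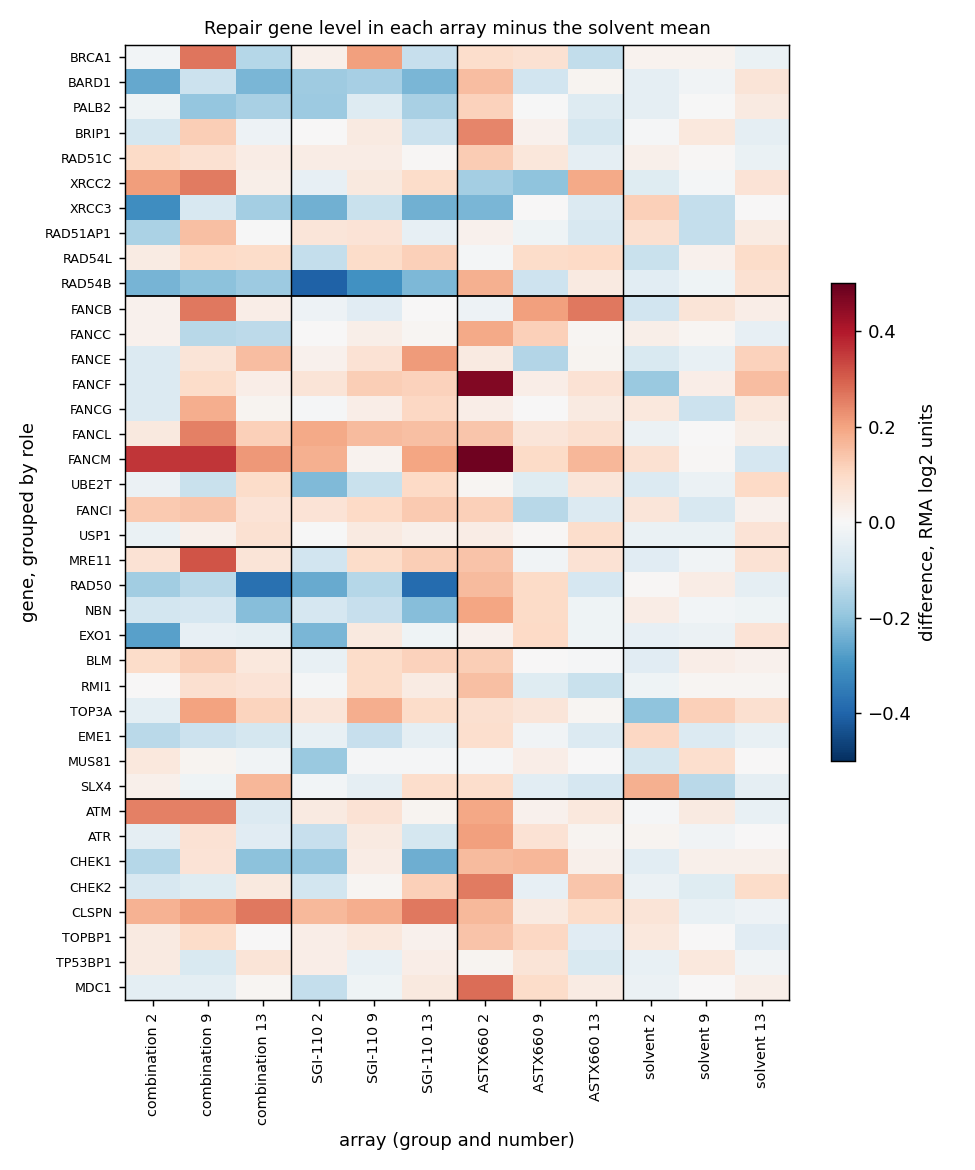
Level of each of the 38 repair genes (rows, grouped by role with black lines) in each of the 12 arrays (columns), minus that gene's mean over the 3 solvent arrays, in RMA log2 units. RAD54B, RAD50, NBN and BARD1 are blue in all 6 arrays with SGI-110, CLSPN is red in all 6, and most rows stay pale.

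Among the BRCA complexes and their recombination partners, 10 genes were tested, and 1 was lower with SGI-110 than with solvent, 0 were higher, and the median difference was 0.00. RAD54B, a SWI/SNF-type motor protein of recombination, had 7.76, 7.86 and 7.94 in SGI-110 cells, against 8.11, 8.14 and 8.24 in solvent cells. The groups did not overlap. RAD54B fell by 0.31 with SGI-110 (SE 0.0766, adjusted p = 0.0141). Its 3 combination arrays had 7.93, 7.96 and 7.98, and its ASTX660 arrays had 8.34, 8.06 and 8.21. Every array with SGI-110 was below every array without it. RAD54B was lower by 0.25 in the combination than in ASTX660 cells (log2 difference -0.25, SE 0.0766, adjusted p = 0.0416). Its difference of -0.21 between the combination and solvent had an adjusted p of 0.0795. That last difference passed the threshold without ASTX660 array 2 (adjusted p = 0.039) and with quantile normalization (0.00872).

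The RAD54B call against solvent was met under 15 of 17 alternative settings, and ended without SGI-110 array 2 (adjusted p = 0.0656) and without solvent array 13 (adjusted p = 0.0624). Its call against ASTX660 was less stable. It ended without ASTX660 array 2 (log2 difference -0.18, adjusted p = 0.118) or 13, without any one combination array, without SGI-110 array 9 and without solvent array 2 or 9, with adjusted p from 0.0548 to 0.118. It also ended with median centring (0.0766) and without the brightness filter (0.0595), and was met under 7 of 17 alternative settings.

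BARD1, the partner that forms the ubiquitin ligase with BRCA1, had 9.36, 9.51 and 9.39 in combination cells, against 9.77, 9.52 and 9.63 in ASTX660 cells. All combination values were below all ASTX660 values, although combination array 9 (9.51) and ASTX660 array 9 (9.52) nearly met. The difference was -0.22 (SE 0.0667, adjusted p = 0.0349). BARD1 had 9.44, 9.45 and 9.39 in SGI-110 cells, against 9.57, 9.60 and 9.68 in solvent cells, again with no overlap. That difference of -0.19 missed the threshold (adjusted p = 0.0772). It passed with the array number as a block (adjusted p = 0.0384), with quantile normalization (0.0479) and without ASTX660 array 2 (0.0341). Between the combination and solvent the BARD1 difference was -0.20 (adjusted p = 0.0575). It passed under 5 of 17 alternative settings, among them without ASTX660 array 2 (adjusted p = 0.0247). All 3 BARD1 probe sets above the filter had a negative difference between SGI-110 and solvent, from -0.19 to -0.01. Between the combination and solvent, 2 were negative and 1 was positive (0.03). The call against ASTX660 ended without ASTX660 array 2 (adjusted p = 0.101) or 13 (0.0662), and without combination array 2 (0.123) or 13 (0.104). It also ended with median centring (0.0667) and with the mean of all BARD1 probe sets (0.0578), and was met under 11 of 17 settings.

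BRCA1 itself, whose complexes direct breaks into recombination, was not called in any comparison. Its level was 9.34, 9.62 and 9.21 in combination cells, 9.38, 9.56 and 9.24 in SGI-110 cells, 9.44, 9.43 and 9.23 in ASTX660 cells, and 9.37, 9.37 and 9.32 in solvent cells. The groups overlapped throughout, and array 9 was high and array 13 low in both groups with SGI-110. The difference between SGI-110 and solvent was 0.04, with a 95% interval from -0.17 to 0.25. PALB2, which bridges BRCA1 and BRCA2, differed by -0.14 between SGI-110 and solvent (adjusted p = 0.207). The helicase BRIP1, the strand exchange factors RAD51C, XRCC2, XRCC3 and RAD51AP1, and the motor protein RAD54L were not called in any comparison either. XRCC2, which was read by a probe set that can cross-hybridise, had 6.43, 6.48 and 6.25 in combination cells, against 6.05, 6.02 and 6.41 in ASTX660 cells. Those groups overlapped through ASTX660 array 13 (6.41), and without that array XRCC2 passed the threshold (log2 difference 0.35, adjusted p = 0.0246).

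Among the 10 Fanconi pathway genes tested, 0 were called with SGI-110 against solvent, and 1, FANCM, was higher with the combination. FANCM, the DNA translocase that anchors the core complex at a crosslink, had 7.07, 7.07 and 6.93 in combination cells, against 6.79, 6.72 and 6.63 in solvent cells. The groups did not overlap, and FANCM rose by 0.31 with the combination (SE 0.0990, adjusted p = 0.0429), or by 1.24-fold. Its 3 SGI-110 arrays had 6.89, 6.73 and 6.91, a difference of 0.13 from solvent (adjusted p = 0.446). Its ASTX660 arrays had 7.20, 6.81 and 6.88, a difference of 0.25 from solvent (unadjusted p = 0.024, adjusted p = 0.701). Array 2 was the highest of all 12, and without it the difference was 0.13 (unadjusted p = 0.137). All 4 FANCM probe sets above the filter were higher with the combination than with solvent, by 0.08 to 0.31. The FANCM call was met under 7 of 17 alternative settings. It ended without any one combination array, any one solvent array or SGI-110 array 2, with adjusted p from 0.0527 to 0.132. It also ended with quantile normalization (0.0833), without the filter (0.0601) and with the mean of all FANCM probe sets (0.149). It held with the array number as a block (adjusted p = 0.00935).

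FANCL, the ubiquitin ligase subunit of the core complex, lay just outside the threshold. It had 9.52, 9.49 and 9.48 in SGI-110 cells, against 9.30, 9.33 and 9.36 in solvent cells, which do not overlap. The difference was 0.17 (SE 0.0571, adjusted p = 0.0639). It passed under 6 of 17 alternative settings, among them with the block (adjusted p = 0.0326) and without ASTX660 array 2 (0.0459). The core subunits FANCB, FANCC, FANCE, FANCF and FANCG, the ubiquitin conjugating enzyme UBE2T, its substrate FANCI and the deubiquitinase USP1 were called in 0 comparisons. Between SGI-110 and solvent, the differences of the 10 genes lay between -0.07 for UBE2T and 0.17 for FANCL. On the chosen probe sets, USP1 had the tightest arrays of the 38 genes (pooled SD within groups 0.0459), and FANCF the loosest, at 0.152. The other USP1 probe set was looser, with 9.77, 10.40 and 10.76 in ASTX660 cells. FANCF reached 7.16 in ASTX660 array 2, against 6.73 and 6.77 in the other ASTX660 arrays. Its difference between ASTX660 and solvent was 0.19 with that array and 0.05 without it, called with neither.

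Of the 4 end resection genes, 1 was lower with SGI-110 than with solvent, 2 were lower with the combination than with ASTX660, and 0 were higher. MRE11, RAD50 and NBN form the complex that holds broken ends and starts to trim them, and EXO1 is an exonuclease that trims further. RAD50, the ATPase of the complex, had 8.93, 9.04 and 8.80 in SGI-110 cells, against 9.19, 9.22 and 9.14 in solvent cells. All SGI-110 values were below all solvent values. RAD50 fell by 0.26 with SGI-110 (SE 0.0814, adjusted p = 0.045). In combination cells RAD50 had 9.01, 9.05 and 8.81, against 9.34, 9.28 and 9.10 in ASTX660 cells, a log2 difference of -0.28 (SE 0.0814, adjusted p = 0.031). These groups did not overlap either, and array 13 was lowest within each of the 4 groups. Between the combination and solvent the difference was -0.22 (adjusted p = 0.0718).

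All 3 RAD50 probe sets above the filter had a negative difference in each of these comparisons. The call against solvent was met under 7 of 17 alternative settings. It ended without SGI-110 array 2 or 13, ASTX660 array 9, combination array 2, or any one solvent array, with adjusted p from 0.0524 to 0.18, and also with median centring (0.0571), without the filter (0.0572) and with the mean of all RAD50 probe sets (0.0839). The call against ASTX660 ended without ASTX660 array 2 (adjusted p = 0.0918) or 9 (0.0961), and without combination array 2 (0.0535) or 13 (0.133).

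NBN, which links the complex to ATM, had 9.94, 9.95 and 9.82 in combination cells, against 10.23, 10.13 and 10.01 in ASTX660 cells. Every combination value was below every ASTX660 value, and the difference was -0.22 (SE 0.0617, adjusted p = 0.0239). NBN had 9.95, 9.92 and 9.82 in SGI-110 cells, against 10.07, 10.02 and 10.01 in solvent cells, a difference of -0.14 (adjusted p = 0.162, or 0.0312 with the block). Its 4 probe sets above the filter were all negative between SGI-110 and solvent, and another of them was called there (log2 difference -0.28, adjusted p = 0.00658). Between the combination and ASTX660, where NBN was called, 3 of the 4 were negative and 1 was positive (0.12). The call against ASTX660 ended without ASTX660 array 2 (adjusted p = 0.072) or 9 (0.0659), without combination array 13 (0.103), and with the mean of all NBN probe sets (0.229). MRE11 was not called in any comparison. Its difference was 0.04 between SGI-110 and solvent (adjusted p = 0.829) and 0.08 between the combination and ASTX660 (adjusted p = 0.551). Between the combination and solvent it was 0.15 (adjusted p = 0.226). Whether MRE11 differed from RAD50 or NBN in its response was not tested. EXO1 was not called in any comparison.

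**Figure D2:**
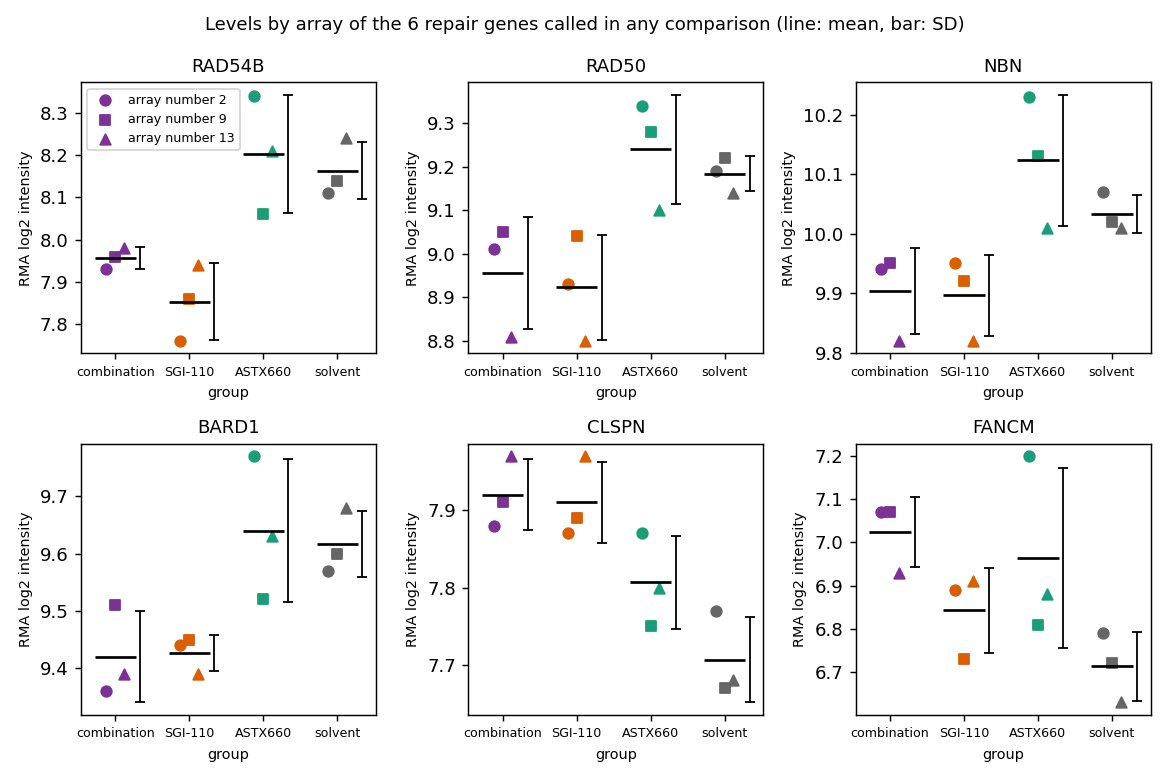
Level (RMA log2 intensity, vertical axis) in every array of the 6 repair genes called in any comparison, with marker shape for the array number, a line for the group mean and a bar for the SD (n = 3). The combination and SGI-110 arrays of RAD54B, RAD50, NBN and BARD1 lie below the solvent arrays, those of CLSPN lie above them, and ASTX660 array 2 is the highest point for RAD54B, RAD50, NBN, BARD1 and FANCM.

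Of the 6 genes that resolve joined DNA molecules, 0 were called in any comparison. They are the helicase BLM and its partners TOP3A and RMI1, the nuclease subunits MUS81 and EME1, and the nuclease scaffold SLX4. Between SGI-110 and solvent their differences lay between -0.07 for EME1 and 0.11 for TOP3A. Between the combination and solvent they lay between -0.11 for EME1 and 0.09 for BLM.

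Among the 8 checkpoint kinases and mediators, 1 was higher with SGI-110 than with solvent and 0 were lower. CLSPN encodes claspin, the adaptor through which ATR activates CHEK1. It had 7.87, 7.89 and 7.97 in SGI-110 cells, against 7.77, 7.67 and 7.68 in solvent cells, with no overlap. CLSPN rose by 0.20 with SGI-110 (SE 0.0634, adjusted p = 0.0447). Combination cells had 7.88, 7.91 and 7.97, also all above solvent, and CLSPN rose by 0.21 with the combination (SE 0.0634, adjusted p = 0.0355). ASTX660 cells had 7.87, 7.75 and 7.80, between the groups, and the combination differed from them by 0.11 (adjusted p = 0.267), or by 0.14 without ASTX660 array 2 (adjusted p = 0.152).

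The CLSPN calls were close to the threshold. Against solvent, the SGI-110 call was met under 4 of 17 alternative settings. It ended without any one SGI-110 or solvent array, without ASTX660 array 9 or 13 and without combination array 9 or 13, with adjusted p from 0.0502 to 0.161, and also with median centring (0.0947), without the filter (0.0771) and with the mean of all CLSPN probe sets (0.347). The combination call ended without any one combination array, without solvent array 9 or 13 and without SGI-110 array 9, with adjusted p from 0.0508 to 0.121, and also with quantile normalization (0.0788), without the filter (0.0595) and with the mean of all probe sets (0.0931). Of the 4 CLSPN probe sets above the filter, 3 were higher with SGI-110 and 4 with the combination.

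The kinase CHEK1, which claspin serves, had 7.80, 8.01 and 7.74 in combination cells, 7.75, 7.98 and 7.70 in SGI-110 cells, 8.10, 8.11 and 7.97 in ASTX660 cells, and 7.89, 7.97 and 7.97 in solvent cells. Arrays 2 and 13 with SGI-110 were below the rest, while array 9 was not. CHEK1 differed by -0.13 between SGI-110 and solvent (95% interval -0.32 to 0.06, adjusted p = 0.369) and by -0.21 between the combination and ASTX660 (adjusted p = 0.121). Without combination array 9 the last of these passed the threshold (log2 difference -0.29, adjusted p = 0.042), as it did with the mean of all CHEK1 probe sets (adjusted p = 0.0433). Without ASTX660 array 2 it was -0.20 (adjusted p = 0.208).

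ATM, the kinase that answers double-strand breaks, had 8.58, 8.58 and 8.26 in combination cells, 8.37, 8.40 and 8.34 in SGI-110 cells, 8.52, 8.35 and 8.38 in ASTX660 cells, and 8.32, 8.37 and 8.29 in solvent cells. Its combination arrays held both the highest and the lowest of the 12 values. ATM differed by 0.15 between the combination and solvent (adjusted p = 0.243), and by 0.25 without combination array 13 (adjusted p = 0.0348). The ATM probe sets disagreed there, with differences from -0.10 to 0.44, and 1 of 4 was called higher. ATR, CHEK2, and the mediators TOPBP1, TP53BP1 and MDC1 were not called in any comparison.

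ASTX660 alone called 0 of the 38 genes against solvent in either direction, and its smallest adjusted p was 0.701. At an unadjusted p under 0.05, 1 member (FANCM, or FANCB without ASTX660 array 2) was higher and 0 were lower, against 4.15% higher and 2.9% lower of all tested genes, of which 0% were called in either direction. The combination against SGI-110 called 0 members, and 0 members had an unadjusted p under 0.05, against 1.02% higher and 1.89% lower of all genes, with 0% called. The interaction, which is the SGI-110 difference in the presence of ASTX660 minus that in its absence, also called 0 members and had 0 at an unadjusted p under 0.05. Of all genes, 0.567% were higher and 1.04% lower in the interaction at that unadjusted threshold, and 0% were called. Of the 38 members 27 had a negative interaction value, as did 7162 of all 12689 tested genes. The median was -0.02 over the members, against -0.01 over all genes. Without ASTX660 array 2 the members' count was 16 and their median 0.01, against a median of 0.004 over all genes.

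For each gene taken singly, a 95% interval bounds the difference in signal of its chosen probe set, and not the change in transcript. The 95% interval of the difference lay within 1.5-fold in either direction for all 38 genes in each of the 5 pairwise comparisons. Of all tested genes, this held for 91.42% in SGI-110 against solvent, 90.46% in the combination against solvent and 91.34% in the combination against ASTX660. The share was 97.82% in ASTX660 against solvent and 98.81% in the combination against SGI-110, so nearly any gene met the limit there. For the interaction, 37 of 38 members met the limit, against 92.73% of all genes. FANCF was the exception, with an interval from -0.61 to 0.07. Without 1 array in turn, the count for the combination against solvent was 37 or 38. The pooled SD within groups had a median of 0.0901 over the members and 0.102 over all tested genes.

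The medians over the 38 genes were close to 0. For SGI-110 against solvent the median of the members was 0.02, against 0.00 over all genes, with 23 of 38 positive. For the combination against solvent it was 0.02, against 0.00, and it was -0.01 after quantile normalization. For the combination against ASTX660 it was -0.01 for both. Arrays of the groups did not overlap for 8 of 38 members in SGI-110 against solvent (background 36.2%), for 11 in the combination against solvent (38.4%), for 8 in the combination against ASTX660 (29.4%), for 4 in ASTX660 against solvent (12.3%) and for 3 in the combination against SGI-110 (8.69%). The members' shares were 21.1%, 28.9%, 21.1%, 10.5% and 7.89% in the same order. Those for ASTX660 against solvent and the combination against SGI-110 were close to the background, and the others were below it.

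**Figure D3:**
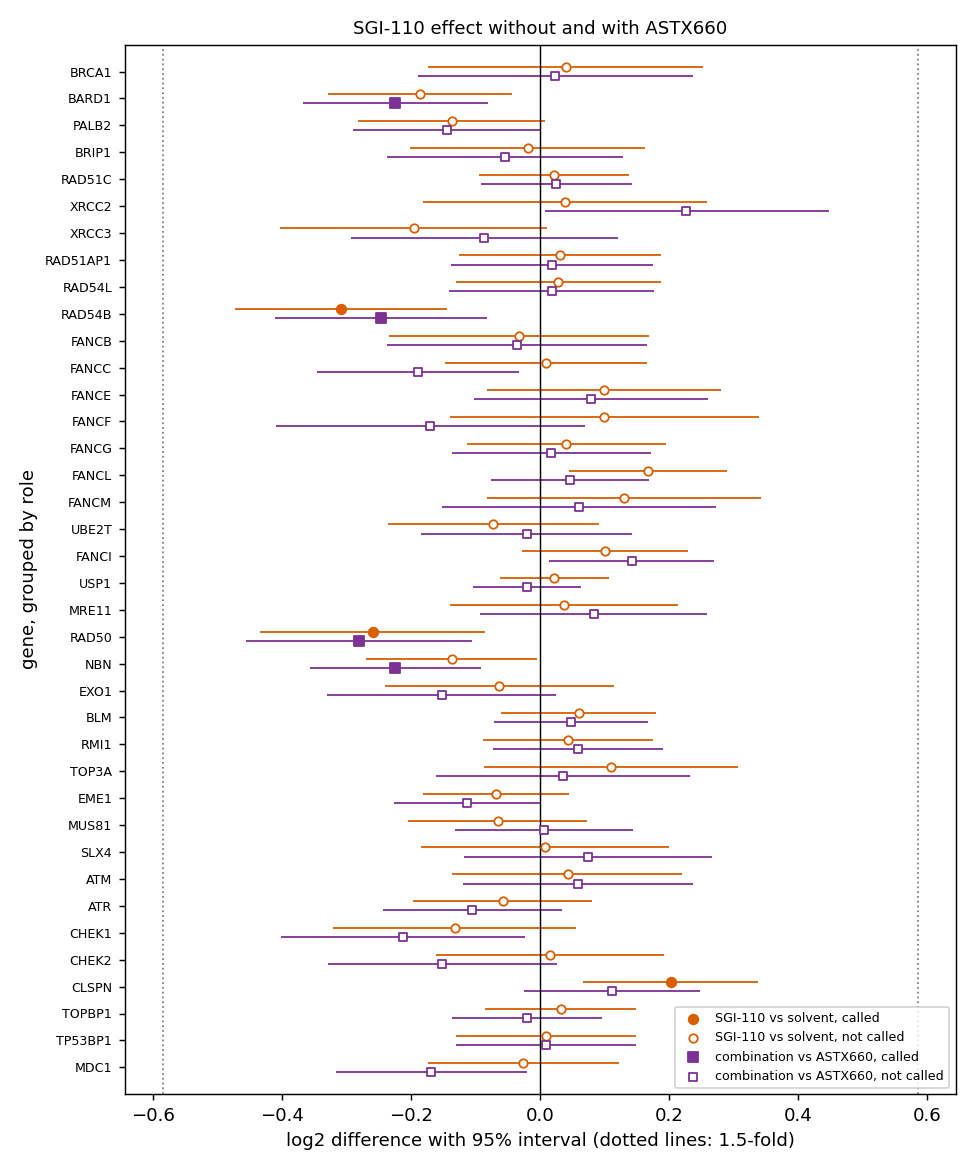
Log2 difference of each of the 38 repair genes with its 95% interval (horizontal axis), for SGI-110 against solvent (orange circles) and the combination against ASTX660 (purple squares), with filled markers for called genes and dotted lines at 1.5-fold. No interval reaches a dotted line, and RAD54B and RAD50 are filled in both.

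The effect of SGI-110 was measured on separate arrays with ASTX660 and without it. RAD54B and RAD50, 2 of the 38 members, were called lower in both comparisons, and 0 members were called higher in both. Of all 12689 tested genes, 590 were called lower in both and 867 higher in both. Over the 38 genes, 32 differences (84.2%) had the same sign in both, against 78.08% of all tested genes. Across genes, which are not independent replicates and were read from the same arrays, Pearson's r was 0.739 and Spearman's rho 0.768, against 0.889 and 0.763 over all 12689 genes. The corresponding ASTX660 differences, without and with SGI-110, had an r of 0.146 over the 38 genes and 24 of 38 signs in common (63.2%), against 64.92% of all genes. Without ASTX660 array 2, 0 members were called lower and 0 higher in both SGI-110 comparisons, against 522 and 989 of the 12689 genes. The sign was then shared by 32 of 38 and r was 0.793, while the ASTX660 differences had an r of 0.292 and 22 signs in common.

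The 4 lower calls against ASTX660 used ASTX660 array 2. That array gave the highest of the 12 values for 16 of 38 repair genes (42.1%), and combination array 9 for another 9 (23.7%, against 8.35% of all genes). Without ASTX660 array 2, the combination against ASTX660 called 0 members lower and 1 higher, FANCI (log2 difference 0.22, adjusted p = 0.0112). Of all 12689 tested genes, that fit called 746 lower and 1246 higher. The other FANCI probe sets overlapped between these groups. In combination arrays they had 10.47, 10.28 and 10.39, and 9.17, 8.94 and 9.14. ASTX660 arrays 9 and 13 had 10.30 and 10.36, and 9.07 and 9.23. Without combination array 13, the combination against ASTX660 also called 0 members lower, against 567 of all tested genes. Against solvent, where ASTX660 arrays are not compared, RAD54B, RAD50, NBN and BARD1 had differences between -0.31 and -0.14 with SGI-110 and between -0.22 and -0.13 with the combination.

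**Figure D4:**
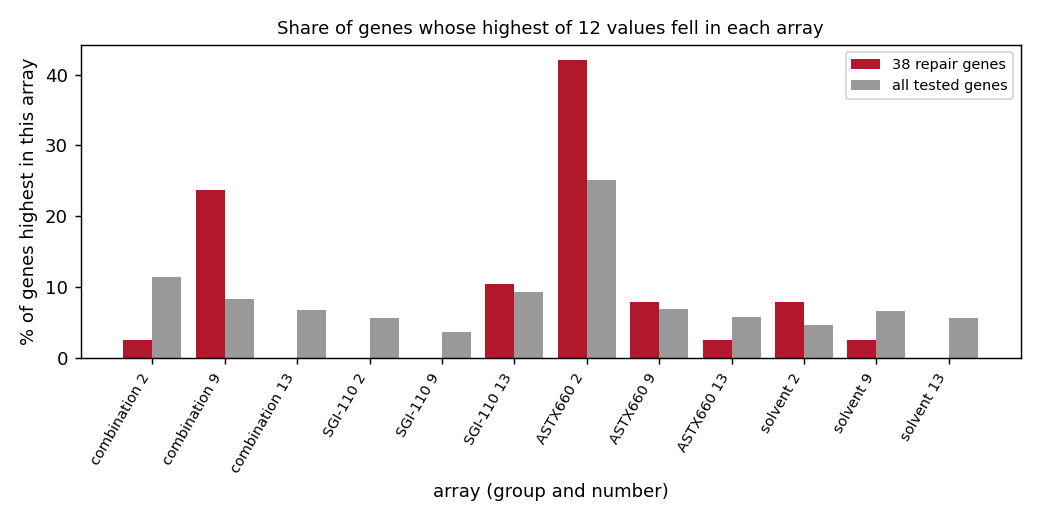
Share of genes (vertical axis, percent) whose highest value among the 12 arrays fell in each array (horizontal axis), for the 38 repair genes in red and all 12689 tested genes in grey. ASTX660 array 2 held 42.1% of the repair genes and 25.11% of all genes, the tallest bar of each.

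Same-numbered arrays were read as one experiment, which the labels do not state. In the comparisons with solvent, counts changed when the array number entered the fit as a block. SGI-110 against solvent then called 2 members higher (CLSPN and FANCL) and 4 lower (RAD54B, adjusted p = 0.0034, RAD50, adjusted p = 0.00167, BARD1 and NBN). The background of all genes called with the block was 14.9% higher and 10.4% lower, so the share of members called lower, 10.5%, was at that background. The combination against solvent called 2 higher (CLSPN and FANCM) and 4 lower: RAD50 (adjusted p = 0.00478), BARD1 (0.0276), NBN (0.0339) and RAD54B (0.0385). The background there was 18.6% higher and 10% lower.

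Other genes of the same processes, from a second list of 64 of which 58 were tested, were also called at shares no higher than the background with SGI-110. Against solvent, 5 of them (8.62%) were higher and 1 (1.72%) lower, against 9.5% and 5.9% of all genes. REV3L, the catalytic subunit of the translesion polymerase zeta, averaged 8.67 in SGI-110 cells and 8.24 in solvent cells, a difference of 0.43 (SE 0.0757, adjusted p = 0.0018). FIGNL1, an ATPase of recombination, averaged 9.33 in SGI-110 cells and 9.02 in solvent cells (adjusted p = 0.00805). The strand exchange accessory factor gene PSMC3IP averaged 8.49 in SGI-110 cells and 8.17 in solvent cells (adjusted p = 0.0085). RNF168, a ubiquitin ligase of break signalling, averaged 8.86 with SGI-110 and 8.54 with solvent (adjusted p = 0.0158). The helicase gene WRN averaged 7.55 in SGI-110 cells and 7.84 in solvent cells, lower by 0.29 (log2 difference -0.29, SE 0.0793, adjusted p = 0.0226). The combination called 7 higher (12.1%, the background share) and 1 lower (1.72%) against solvent, and 5 higher (8.62%) and 4 lower (6.9%) against ASTX660, where the background was 8.37% and 7.69%.

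Non-homologous end joining, the other main route for broken ends, was covered by 9 tested genes of 11 listed. The combination and SGI-110 each called 1 of them higher than solvent, LIG4, the ligase of that route. That is 11.1% of a list of 9, against 12.1% of all genes higher with the combination and 9.5% with SGI-110. LIG4 averaged 7.82 in combination cells, 7.66 in SGI-110 cells, 7.45 in ASTX660 cells and 7.35 in solvent cells. The difference was 0.31 with SGI-110 (SE 0.0849, adjusted p = 0.024) and 0.47 with the combination (adjusted p = 0.00194). Against ASTX660 the combination called LIG4 higher and 1 gene lower.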

How the data were processed

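Gene expression was measured on 12 arrays of ML-2 cells, 3 for each of 4 treatments, from 3 independent experiments per the series design. The deposited log2 intensities were made by the authors with RMA and affy per the submitters' processing notes, which give no version. RNA input was 100 ng, per the labels' protocols. The values ranged from 2.078 to 14.38 over 54675 probe sets, with array medians from 4.688 to 4.774, and the number of arrays limits the precision. Since RMA compresses the ratios of dim probe sets, the folds may understate change.

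Probe sets with 1 annotated gene (41091) were kept, the brightest on average stood for its gene, and genes above the array median in at least 3 arrays were tested. limma 3.58.1 in R 4.3.3 fitted 1 mean per group with an intensity trend (8 residual degrees of freedom), and p-values were adjusted by Benjamini-Hochberg over 12689 genes per comparison. The fit was tested on simulated data. Members and lists were chosen with earlier results of these data known. Values by array were given for members called with SGI-110 or the combination against solvent and for BRCA1, CHEK1 and ATM, and other genes named with array values were chosen after their values were seen. Other pathway genes were named for the 6 smallest adjusted p with SGI-110.

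Arrays of one number were read as one experiment, which the labels do not state. Deviations of same-numbered arrays correlated above 0.1 for every number in SGI-110 with solvent (0.377, 0.367 and 0.572), the combination with solvent (0.15, 0.159 and 0.541), ASTX660 with solvent and the combination with SGI-110. They did not for the combination with ASTX660 (0.057 for number 2) or for SGI-110 with ASTX660 (0.085 for number 2). Alternatives were median centring, quantile normalization, no brightness filter, the mean of all probe sets of a gene, the experiment number as a block, and leaving out each array.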

Additional observations from a re-analysis of the deposited data

How the results depend on the processing

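In the comparison in which a gene was called, its difference kept its sign under every alternative. Of the alternative values of single genes, 3774 kept their side of the threshold, 68 lost a call and 28 gained one. For SGI-110 against solvent, the 1 gene called higher became 0 with median centring or without the brightness filter and 2 with quantile normalization or the replicate block, and 0 to 2 without 1 array. The 2 called lower became 1 with median centring, without the filter or with the mean of all probe sets, 4 with the replicate block, and 0 to 3 without 1 array. For the combination against solvent, the 2 called higher became 0 with quantile normalization, without the filter or with the mean of all probe sets, and 0 to 2 without 1 array, while the 0 called lower became 3 with quantile normalization, 4 with the replicate block, and 0 to 2 without 1 array. For the combination against ASTX660, the 0 called higher became 1 with the replicate block and 0 to 1 without 1 array. Deviations of the arrays numbered 2 in these groups correlated by only 0.057. The 4 called lower became 2 with median centring and 0 to 4 without 1 array, and were 5 with the replicate block, which added CHEK1 (adjusted p = 0.0281). The interaction, ASTX660 against solvent and the combination against SGI-110 called 0 members under every alternative. Over all genes, the replicate block raised the calls to 3202 (SGI-110 against solvent), 3632 (combination against solvent) and 3378 (combination against ASTX660), against 1955, 2275 and 2038 without it, and to 1 for ASTX660 against solvent and 10 for the combination against SGI-110. Leaving out 1 array gave 1239 to 2312, 1389 to 2751 and 1310 to 2033 calls in the first 3 comparisons. Of the combination calls against solvent 67.4% were higher, against 54.1% with quantile normalization and 77.3% with median centring. Most calls of repair genes lay near the threshold, and the cause of the lost and gained calls was not tested.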
